A study of Arabidopsis thaliana with 4 samples.

Results

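Cytochrome P450 and glutathione transferase genes were followed in expanded leaves of Arabidopsis thaliana, in the Columbia accession and in the jaw-D mutant. A gene was included when the platform annotation paired its probe set with that gene alone and its symbol was of the P450 style (CYP, a number and a letter) or began with GSTU, GSTF, GSTL or GSTZ. This gave 36 genes of the 13350 that the annotation pairs with a probe set of their own, 23 P450 genes and 13 glutathione transferase genes. Each had a single probe set, so no choice between probe sets was needed. Plants of both genotypes grew in short days, and each genotype had 2 arrays. The jaw-D line overexpresses miR319a, a microRNA whose known targets are mRNAs of a group of TCP transcription factors. It is known as a dominant activation-tagged line, and Columbia without the insertion was the control. Plant age is not given in the labels, which also do not say whether the arrays of a genotype came from separate plants, so a p-value here reflects the spread of these arrays alone, which may be technical.

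Plant P450s are haem enzymes, mostly anchored in the endoplasmic reticulum, that take electrons from a reductase and insert an oxygen atom into hormones, lipids, phenolics and defence compounds. The CYP71 family is the largest group of them and acts mainly in specialised metabolism. Glutathione transferases join the tripeptide glutathione to reactive or foreign molecules, which are then moved into the vacuole. The tau (GSTU) and phi (GSTF) classes are plant classes known for their induction by herbicides, oxidants and pathogens, while lambda (GSTL) enzymes carry a cysteine in the active site and act as thiol transferases. Leaves express many genes of both families, and single genes often respond to stress hormones.

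All 36 symbols matched the symbol of the same gene identifier in the TAIR10.1 reference, where 280 genes carry a symbol of these families, 236 P450 and 44 glutathione transferase genes. The measured genes are therefore a small and uneven sample. CYP71B supplied 19 of the 23 P450 genes, out of 36 CYP71B genes in the reference, and the others were CYP51G2, CYP78A9, CYP79A2 and CYP84A4. Tau genes supplied 11 of the 13 glutathione transferase genes, next to GSTF4 and GSTL3, and no zeta gene was among them. CYP71B27 and CYP51G2 are transcribed pseudogenes in the reference.

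Signals were linear intensities, as judged from their range, with nearly the same trimmed mean on every array. Median signals of the arrays lay between 74.6 and 77.2. Signals under 16 made up 17.8% and 18.4% of all probe sets on the Columbia arrays, and 22.3% and 21.7% on those of jaw-D. Of the leaf markers, RCA and LHCB4.1 ranked above 99.9% of all probe sets, and the 2 measured of 5 summed to between 17984 and 23859 on the arrays. The 3 measured root markers of 5 summed to 79.2 and 92.0 in Columbia and 70.2 and 72.5 in jaw-D, and 0 of the 6 flower and pollen markers were measured.

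No gene of either family passed the test between jaw-D and Columbia leaves. With limma on log2(signal + 16) and Benjamini-Hochberg adjustment over 22746 probe sets, 0 of 23 P450 genes and 0 of 13 glutathione transferase genes had an adjusted p under 0.05, where 0.189% of all probe sets did. At an unadjusted p under 0.05 there were 5 of 36 genes, a share of 13.9% against 13.0% of all probe sets, so the families did not stand apart in this count. The 5 were CYP71B22 and GSTF4, with higher signals in jaw-D, and CYP71B36, CYP71B24 and CYP71B31, with lower ones. The 2 and 3 genes compare with 4.53% and 8.47% of all probe sets, higher and lower. Differences were below 0 for 21 of the 36 genes and for 56.9% of all probe sets. The median log2 difference, jaw-D minus Columbia, was -0.04 over the P450 genes and -0.08 over the glutathione transferase genes, and -0.04 over all probe sets. In a bulk leaf sample, fewer cells of a type and less RNA per cell cannot be told apart.

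Differences ran from -0.94 to 1.26 for P450 genes and from -0.33 to 0.42 for glutathione transferase genes. Signals of the genotypes did not overlap for 10 of the 36 genes, or 27.8%, while 44.0% of all probe sets showed such a separation. Of these 10, 3 were higher and 7 lower in jaw-D, against 17.5% and 26.5% of all probe sets. A size of difference under 0.3 was found for 27 of the 36 genes and for 71.0% of all probe sets.

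**Figure D1:**
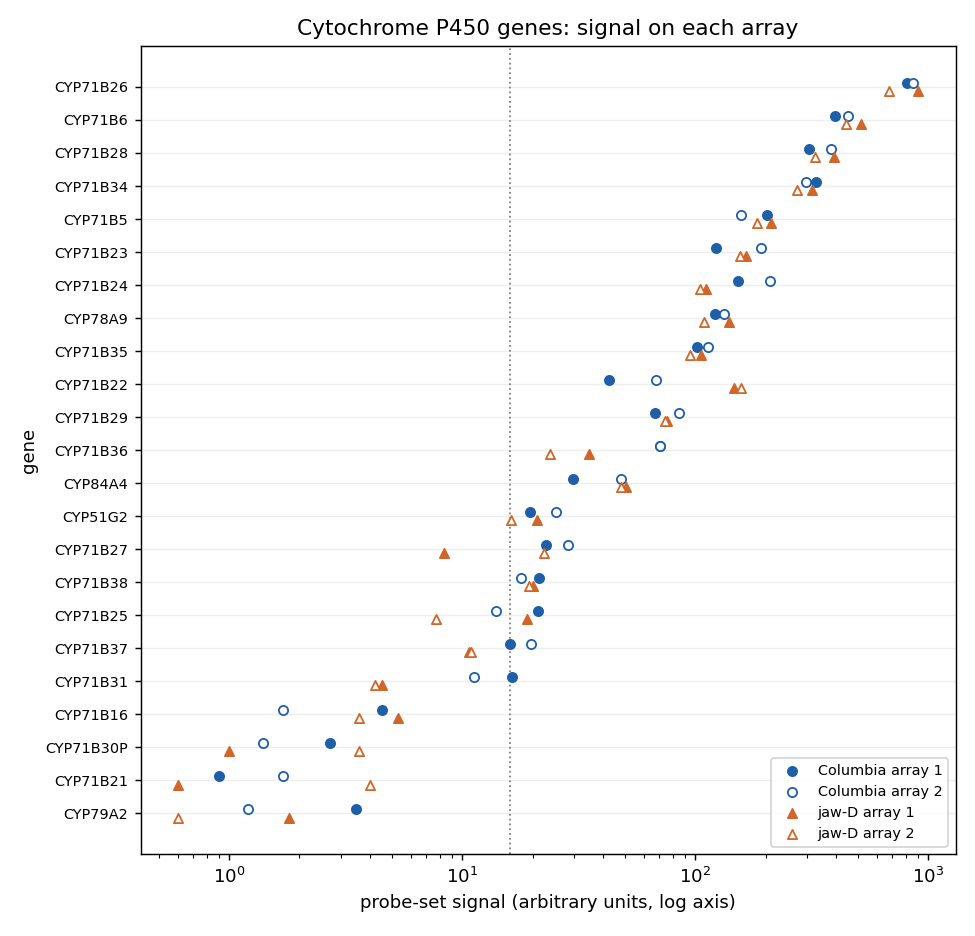
Probe-set signal (horizontal log axis, arbitrary units) of the 23 P450 genes on each of the 4 arrays. Circles are Columbia and triangles jaw-D, filled for array 1 and open for array 2. The dotted line marks a signal of 16, the pseudocount. Rows are sorted by mean signal for display, and signals of different probe sets are not compared. CYP71B22 has both triangles to the right of both circles, and CYP71B36, CYP71B24, CYP71B37, CYP71B31 and, narrowly, CYP71B27 have them to the left.

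The gene with the smallest p of either family was CYP71B22, a P450 gene of the chromosome 3 cluster described below. Its signal was 42.7 and 67.5 in Columbia and 146.8 and 156.5 in jaw-D. Both jaw-D arrays lay above both Columbia arrays, and the gap between genotypes was wider than the spread within either. The log2 difference was 1.26 ± 0.21 (SE, n = 2 arrays each), or 2.39-fold on the log2(signal + 16) scale, with a 95% interval from 0.74 to 1.77 and a limma adjusted p of 0.133. The call depended on which probe sets were tested. Over the 11375 probe sets whose mean signal was not below the median, of which 2.56% were called, its adjusted p by limma was 0.0113. That median was 77.45, and both Columbia signals of CYP71B22 lay below it. The gene passed this filter only through its jaw-D signals, so this adjusted p is no added support. Over the 17060 not below the 25th percentile, of which 1.31% were called, its adjusted p by limma was 0.0311.

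CYP71B36 had the next smallest p, with signals of 70.8 and 70.3 in Columbia and 35.1 and 23.8 in jaw-D. The Columbia arrays nearly coincided, and both jaw-D arrays were at or below 35.1. Its log2 difference was -0.94 ± 0.18 (SE), with a 95% interval from -1.38 to -0.50 and a limma adjusted p of 0.155. CYP71B24 read 152.8 and 208.5 in Columbia but 111.1 and 104.4 in jaw-D. The jaw-D arrays were close together below both Columbia arrays, which differed from each other by more than the lower one differed from jaw-D. Its log2 difference of -0.65 (SE 0.19) had an unadjusted p of 0.0142 and a limma adjusted p of 0.268.

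CYP71B31, known for oxidising the monoterpenol linalool in flowers, read 16.3 and 11.2 in Columbia and 4.5 and 4.2 in jaw-D. These signals were at the dim end, where the share of probe sets under 16 also differed between genotypes. Over all probe sets with a mean signal below the median, the median log2 difference was -0.11. The part of that shift in this result was not tested. The log2 difference of CYP71B31 was -0.54 (SE 0.16, adjusted p = 0.278 by limma). It was -0.42 with quantile normalization, -0.02 with a floor on low signals, -0.19 with 64 as the pseudocount and -1.44 with 1. Its size therefore rests on how dim signals are treated. CYP71B37 and CYP71B27 were also dim. CYP71B37 read 16 and 19.7 against 10.7 and 10.9, a log2 difference of -0.33 (adjusted p = 0.426 by limma). That difference was -0.17 with quantile normalization, -0.13 with 64 as the pseudocount and -0.67 with 1. The pseudogene CYP71B27 read 22.8 and 28.4 in Columbia, and 8.3 and 22.3 in jaw-D, where the arrays differed widely. Its log2 difference was -0.44, and -0.28 with quantile normalization.

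**Figure D2:**
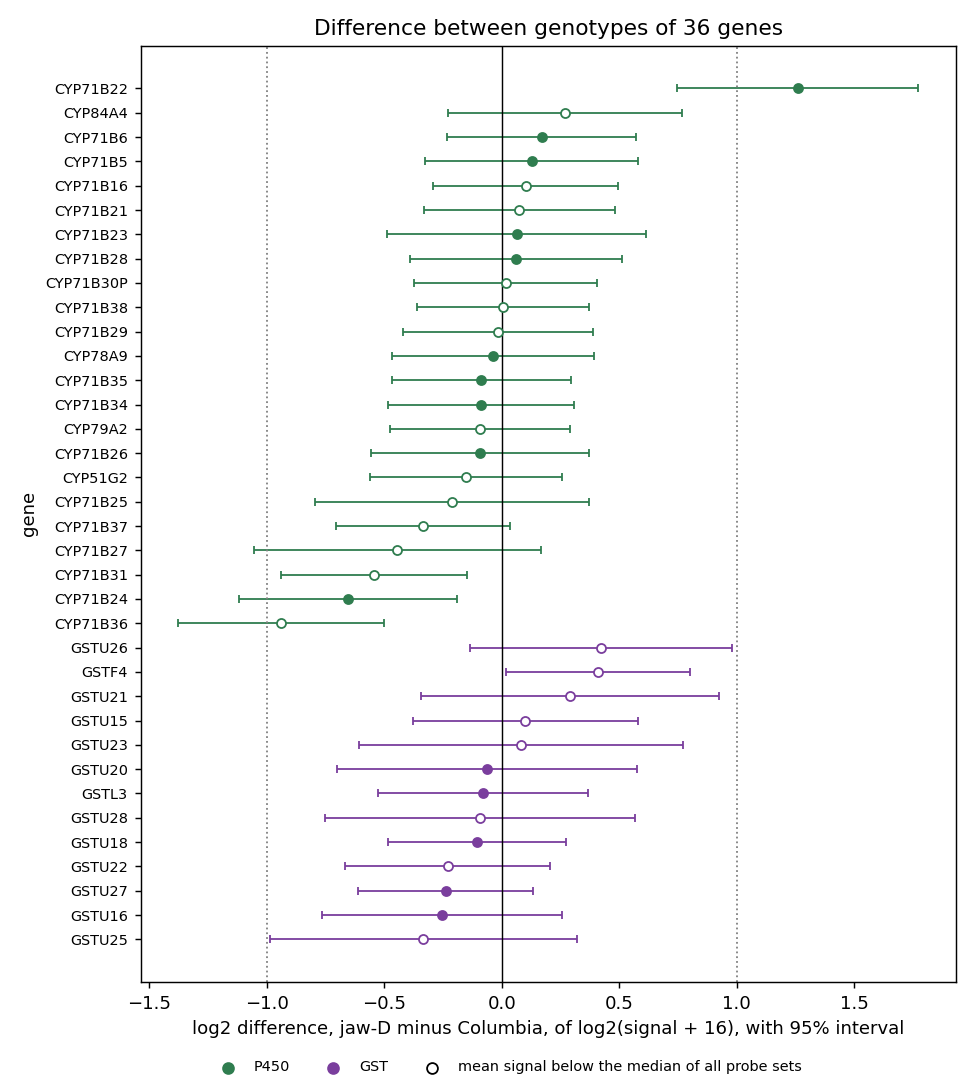
Log2 difference between jaw-D and Columbia (horizontal axis, log2(signal + 16) scale) of the 36 genes with 95% intervals from limma, not adjusted for the number of genes, on 2 arrays per genotype. Green marks P450 and purple glutathione transferase genes, open symbols a mean signal below the median of all probe sets, and dotted lines a 2-fold difference. Most intervals include 0, and those of CYP71B22, CYP71B36, CYP71B24, CYP71B31 and GSTF4 do not.

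Genes of these families often lie in tandem arrays, and 25 of the 36 fell into 6 runs of neighbours, with at most 10 other genes between one measured member and the next. The longest run, on chromosome 3 from CYP71B16 to CYP71B37, spans 25 genes of the reference, 18 of them CYP71B genes and 11 of those measured. Of these 11, 3 had an unadjusted p under 0.05, where 13.0% of all probe sets did. In RefSeq order, the first 4 measured genes, CYP71B16 to CYP71B23, had differences above 0, and the other 7, CYP71B24 to CYP71B37, had differences below 0. The intervals of 8 of the 11 included 0. Directions turned for CYP71B16, CYP71B21, CYP71B23, CYP71B25, CYP71B26 and CYP71B34 when 1 array was left out, so this order of signs is not stable. CYP71B22 lies directly between CYP71B21 and CYP71B23, whose log2 differences were 0.08 and 0.06. CYP71B21 was very dim, at 0.9 and 1.7 in Columbia and 0.6 and 4.0 in jaw-D, and a difference was not detectable there. CYP71B23 read 122.2 and 190.5 in Columbia and 165.7 and 155.4 in jaw-D, and its genotypes overlapped. Its 95% interval ended at 0.62, below the lower end of 0.74 for CYP71B22. These intervals are not adjusted and CYP71B22 was picked for its small p, so this is no test between the genes.

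Ratios within an array restate these differences with less part for the scaling between arrays, for genes already picked by their small p, so they are no further support. The log2 ratio of CYP71B22 to CYP71B23 was -1.24 and -1.31 in Columbia and -0.16 and 0.01 in jaw-D. For CYP71B22 over CYP71B24 the ratios were -1.52 and -1.43 against 0.36 and 0.52. The shift between genotypes was 1.20 for the former and 1.91 for the latter. Only the shift can be read, since the ratio itself depends on the probes. The smallest p of the exact permutation test with so few arrays is 0.333, so it is not used here.

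At the other end of the cluster, CYP71B36 adjoins CYP71B35 on one side and CYP71B37 on the other. CYP71B35 read 101.6 and 113.8 in Columbia and 106.1 and 94.7 in jaw-D, a log2 difference of -0.09 with a 95% interval from -0.47 to 0.29. CYP71B34 read 329.8 and 298.2 against 316.4 and 273.1, also a log2 difference of -0.09. Both overlapped between genotypes. CYP71B37, in contrast, was lower on both jaw-D arrays like CYP71B36, and its 95% interval from -0.70 to 0.04 overlapped that of CYP71B36. The log2 ratio of CYP71B36 to CYP71B35 was -0.44 and -0.59 in Columbia and -1.26 and -1.48 in jaw-D, a shift of -0.85. None of the 11 probe sets in the cluster is of a design that Affymetrix marks as binding several transcripts. How far near-identical relatives contribute to a signal was not tested.

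**Figure D3:**
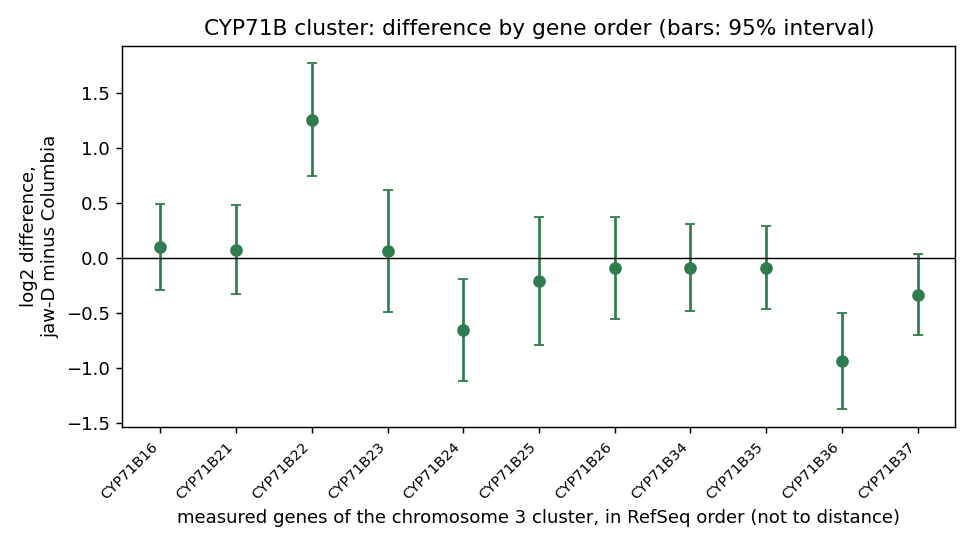
Log2 difference between jaw-D and Columbia (vertical axis, log2(signal + 16) scale) of the 11 measured genes of the CYP71B cluster on chromosome 3, in RefSeq order and not to distance. Points are limma estimates from 2 arrays per genotype and bars their 95% intervals. CYP71B22 lies above 0, CYP71B24 and CYP71B36 lie below, and the intervals of the other 8 include 0.

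The remaining measured genes of the cluster overlapped between genotypes. CYP71B26 read 813.2 and 861.6 in Columbia and 906.4 and 678.9 in jaw-D, so that the jaw-D arrays were both the highest and the lowest of the 4. Its log2 difference was -0.09, with a 95% interval from -0.56 to 0.37. CYP71B25 and CYP71B16 were dim, with log2 differences of -0.21 and 0.10. In the short run of CYP71B5, CYP71B30P and CYP71B31 on the same chromosome, CYP71B5 read 203.9 and 156.7 against 210.7 and 183.8, a log2 difference of 0.13. CYP71B30P stayed at or below 3.6 on every array. In the chromosome 1 run, CYP71B28 read 308.4 and 382.1 in Columbia and 392.9 and 327.7 in jaw-D, and CYP71B29 had a log2 difference of -0.02.

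The other P450 genes, most of them with a known role, gave small differences. CYP71B6, which encodes an enzyme that converts indole-3-acetonitrile in indole defence metabolism, read 397.2 and 450.2 in Columbia and 513.9 and 443.7 in jaw-D. Its log2 difference was 0.17, with a 95% interval from -0.23 to 0.57. CYP78A9, whose family is known for promoting the growth of fruits, seeds and other organs, read 121.4 and 132.1 against 139.4 and 108.4. The log2 difference of CYP78A9 was -0.04, with a 95% interval from -0.47 to 0.39, which does not reach a 2-fold difference either way. CYP84A4, of arabidopyrone synthesis from phenolic precursors, read 29.8 and 47.9 against 50.6 and 47.9, a log2 difference of 0.27. CYP79A2, which makes the aldoxime precursor of benzyl glucosinolate, was at or below 3.5 on all 4 arrays. The pseudogene CYP51G2, a relative of the sterol demethylase gene CYP51G1, had a log2 difference of -0.15, which turned to 0.02 with quantile normalization. CYP71B38 had a log2 difference of 0.01.

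None of the glutathione transferase genes passed the test, and GSTF4 had the smallest p among them. GSTF4 was the phi gene among the 36, while ATGSTF13, a phi gene outside the rule by its symbol, had a log2 difference of -0.37. GSTF4 read 20.1 and 16.4 in Columbia and 26.8 and 32.2 in jaw-D. Both jaw-D arrays were above both Columbia arrays, and all 4 signals were low. The log2 difference was 0.41 (SE 0.16), with a 95% interval from 0.02 to 0.80 and a limma adjusted p of 0.364. It was 0.57 with quantile normalization, 0.18 with 64 as the pseudocount, 0.665 with 1 and 0.69 with a floor on low signals. GSTU26, a tau gene known to respond to herbicides, read 63.9 and 41.1 against 86.1 and 64.3. Its jaw-D arrays lay above the Columbia ones, but the closest arrays of the genotypes differed by far less than the arrays within either. The log2 difference was 0.42 (SE 0.23, adjusted p = 0.501 by limma).

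**Figure D4:**
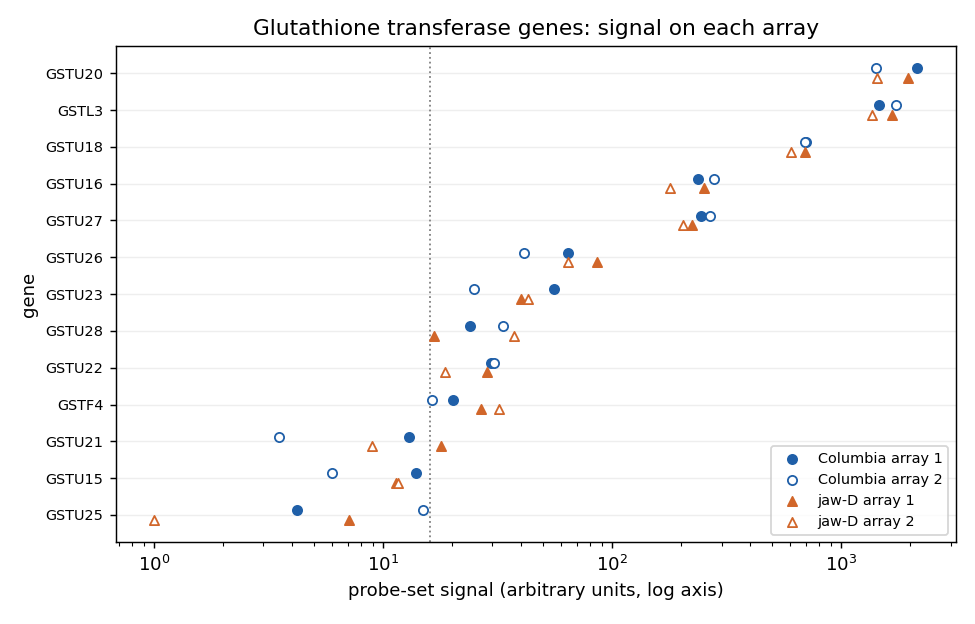
Probe-set signal (horizontal log axis, arbitrary units) of the 13 glutathione transferase genes on each of the 4 arrays. Circles are Columbia and triangles jaw-D, filled for array 1 and open for array 2, and the dotted line marks a signal of 16. Rows are sorted by mean signal for display only. Circles and triangles are interleaved or close for most genes, and GSTF4, GSTU26, GSTU27 and GSTU22 have the genotypes apart.

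GSTU25, whose enzyme is known to detoxify the explosive TNT, adjoins GSTU26 on chromosome 1. It read 4.2 and 14.9 in Columbia and 7.1 and 1.0 in jaw-D, all under 16, and had a log2 difference of -0.33. In the chromosome 1 run of GSTU20 to GSTU23, all 4 family genes of the span were measured. None of the 4 had an unadjusted p under 0.05, where 13.0% of all probe sets did. GSTU20 encodes a protein that binds the jasmonate-conjugating enzyme JAR1 and takes part in far-red light signalling. Its signals were 2147 and 1423 on Columbia arrays 1 and 2 and 1949 and 1439 on jaw-D arrays 1 and 2. Array 1 was the brighter in both genotypes, by more than the genotypes differed. The log2 difference of GSTU20 was -0.06, with a 95% interval from -0.70 to 0.58, and it ran from -0.36 to 0.23 when 1 array was left out. GSTU22 read 29.6 and 30.4 against 28.3 and 18.7, a log2 difference of -0.23 that was -0.06 with quantile normalization. For GSTU21 and GSTU23 the differences were 0.29 and 0.08, with overlapping genotypes, and that of GSTU21 ran from 0.00266 to 0.575 when 1 array was left out.

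GSTL3, the measured lambda gene, read 1457 and 1730.4 in Columbia and 1659 and 1357 in jaw-D. The genotypes overlapped, and the log2 difference was -0.08 with a 95% interval from -0.53 to 0.37. GSTU18 read 701.0 and 692.2 against 692.6 and 603.4, a log2 difference of -0.11 with a 95% interval from -0.48 to 0.27. GSTU27 was lower on both jaw-D arrays, at 223.6 and 204.7 against 243.8 and 267.5. The log2 difference of GSTU27 was -0.24 (SE 0.15, adjusted p = 0.573 by limma). GSTU16, whose signals overlapped, had -0.25. The differences of GSTU15 and GSTU28 were 0.10 and -0.09.

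How far the arrays bound a missed difference was described separately for bright and dim genes. Of the 36 genes, 15 had a mean signal no lower than that of the median probe set, 10 P450 and 5 glutathione transferase genes. For 13 of these 15 the 95% interval stayed inside a 2-fold difference either way, against 91.5% of all probe sets this bright. The exceptions were CYP71B24 and CYP71B22, and CYP71B22 was this bright only through its jaw-D signals. The other 21 genes were dimmer, and 6 of them, GSTU25, CYP71B16, CYP79A2, GSTU15, CYP71B21 and CYP71B30P, read under 16 on all 4 arrays, between 0.6 and 14.9. For these the pseudocount narrows the interval, and a difference was not detectable at this signal. Over all 36 genes the interval stayed inside a 2-fold difference for 32, so this count does not show what is missed at dim signals. Among the 15 bright genes, jaw-D array 2 was the lowest of the 4 arrays for 9, while it was the lowest for 25.4% of all bright probe sets. This array gave the lower jaw-D signal for every bright gene except CYP71B22. That includes CYP71B24, GSTU27 and GSTU18, whose differences were below 0.

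Genes that work with these enzymes were taken from 10 lists of 84 genes. The annotation used here gave 9 of them a probe set of their own, in 5 lists. Of these 9, 0 had an adjusted p under 0.05 by limma, against 0.189% of all probe sets. At an unadjusted p under 0.05, 1 of the 9 was higher and 0 were lower, against 4.53% and 8.47% of all probe sets. Glutathione reductases, which keep glutathione reduced, had log2 differences of 0.12 for GR1 and -0.16 for GR2. GR2 read 1335 and 1377 in Columbia but 1156 and 1266 in jaw-D. The membrane-bound transferase gene MGST had -0.20. Among other detoxification enzymes, the glucosyltransferase genes UGT73B5 and UGT73B4 had -0.28 and -0.09. UGT73B4 read at or below 4.6 on every array, where a difference was not detectable. For glucosinolate synthesis, UGT74B1, which encodes a glucosyltransferase of the core pathway, had 0.21, and BCAT4, which encodes an aminotransferase of methionine chain elongation, had 0.07. DFR, of anthocyanin synthesis, was the gene with an unadjusted p under 0.05, at 0.0335, and its adjusted p was 0.338 by limma. The lists for P450 redox partners, glutathione conjugate transporters, TGA factors, brassinosteroids and the cuticle had 0 measured genes and are not analysed here.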

How the data were processed

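RNA from expanded leaves was measured on 4 single-colour oligonucleotide arrays, 2 per genotype, grouped by the sample descriptions, with replicate numbers from the letters in the titles. The deposited values are linear intensities, 1 for each probe set, as judged from their range. How the authors summarised and scaled them is not given in the sources used here. Trimmed means computed here, with 2% cut from each end, were nearly equal between arrays, at 200.017 to 200.018. Of 22810 rows, 64 array controls were left out, and 0 columns were unassigned. Log2(signal + 16) was tested two-sided with limma 3.58.1 (lmFit, eBayes) under R 4.3.3, with Benjamini-Hochberg adjustment over 22746 probe sets (degrees of freedom 2 residual, 3.76 prior). Array medians lay between 6.50 and 6.54 on the log2 scale, so no normalization was added. Differences are understated for dim probe sets, and the number of arrays limits the precision.

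Gene names came from the platform annotation, which gave 13513 probe sets 1 gene, 503 several and 8730 none, and were set against TAIR10.1. Gene order is that of TAIR10.1. The members and lists were chosen with earlier results of these data known. Named genes were any called, the 8 smallest p and the 5 highest mean signals of each family, 2 genes of each role, and their tandem neighbours. CYP51G2, CYP71B38 and GSTU28, which fall outside this, were named to account for all members. Alternatives were the replicate block, normalization by quantiles or medians, pseudocounts of 64 and 1, a floor, filters at the median and the 25th percentile of the mean signal, an intensity trend, robust moderation, leaving out each array and the mean of a gene's probe sets. A planned search of promoters for motifs was not run, and sequence was not used here. Deviations of same-numbered arrays correlated at -0.0743, so the numbers were not taken as pairs.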

Additional observations from a re-analysis of the deposited data

How the results depend on the processing

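Of the 11 alternatives other than leaving out an array, 6 leave every gene's difference as it is by construction. In the other 5, differences turned direction for 3 of the 36 genes. These were, with quantile normalization, 0.0211 for CYP51G2, 0.0594 for GSTU28 and 0.0083 for CYP71B29, and with median centring 0.00503 for CYP71B29. The floor gave the 6 genes under 16 on every array a difference of 0, so these could not turn there. When 1 array was left out, 17 genes turned direction, all with a size of difference under 0.3, and 19 did not. Called P450 genes rose from 0 to 1 (CYP71B22) with the filter at the median and to 1 with that at the 25th percentile. CYP71B22 passed the median filter only through its jaw-D signals. Fewer probe sets were tested with both filters, and the unadjusted p of CYP71B22 was also lower. By limma that p went from 0.00107 to 0.000109 and 0.000276, with the difference unchanged. No glutathione transferase gene was called in any setting that kept every array. P450 genes at an unadjusted p under 0.05 went from 4 to 2 above the median, where 10 of the 23 were tested. These 2 were CYP71B22 and CYP71B24. The share of all probe sets at that p is not given for these settings, so neither family's count is set against it. For glutathione transferase genes that count went from 1 to 0 above the median, with a pseudocount of 64, an intensity trend and the replicate block, and ran from 0 to 1 when 1 array was left out. Calls over all probe sets were 43, and became 291 and 224 with the filters, 1 with a floor of 15.9, 0 with a pseudocount of 1, 103 with a trend, 66 with the replicate block, and 0 to 0 without 1 array, where a lone array is assumed to vary like the other genotype. The cause of these changes in counts was not tested.

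Without 1 array, differences ran from -0.491 to 0.0674 for CYP71B25, from -0.0472 to 0.301 for CYP71B5, from -0.00477 to 0.207 for CYP71B16, from -0.189 to 0.0121 for CYP71B34, from -0.296 to 0.113 for CYP71B26 and from -0.0592 to 0.21 for CYP71B21. They ran from -0.0867 to 0.209 for CYP71B28, from -0.227 to 0.353 for CYP71B23, from -0.198 to 0.124 for CYP78A9, from -0.0855 to 0.12 for CYP71B30P, from -0.152 to 0.119 for CYP71B29 and from -0.0653 to 0.0768 for CYP71B38. For glutathione transferase genes they ran from -0.121 to 0.322 for GSTU15, from -0.224 to 0.0621 for GSTL3, from -0.444 to 0.258 for GSTU28, from -0.323 to 0.488 for GSTU23 and from -0.356 to 0.232 for GSTU20. A further 12 genes did not turn but moved by over 1.5 times. The ranges were 0.0299 to 0.51 for CYP84A4, 0.0668 to 0.272 for CYP71B6, -0.772 to -0.116 for CYP71B27, -0.257 to -0.0465 for CYP51G2, -0.159 to -0.0165 for CYP71B35 and -0.182 to -0.000878 for CYP79A2. They were 0.00266 to 0.575 for GSTU21, 0.18 to 0.665 for GSTU26, -0.482 to -0.0261 for GSTU16, -0.641 to -0.0276 for GSTU25, -0.407 to -0.0543 for GSTU22 and -0.202 to -0.00809 for GSTU18. CYP71B22 ran from 1.01 to 1.51 and CYP71B36 from -1.12 to -0.76, with adjusted p between 0.0113 and 0.428 and between 0.0565 and 0.5 over all alternatives.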

Other observations

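A pair of genes whose symbols fall just outside the rule were also measured, and were chosen after their values were seen. ATGSTF13, a phi class glutathione transferase gene under an older style of symbol, read 19.3 and 14.1 in Columbia and 8.2 and 10.3 in jaw-D. Its log2 difference was -0.37 (SE 0.16), with an unadjusted p of 0.0638 (limma, adjusted p = 0.418), while the phi gene GSTF4 had 0.41. CYP718, a P450 gene of a family with no letter in its symbol, stayed at or below 2.9 on every array and had a log2 difference of -0.04.

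GSTU20 and the glucosinolate synthesis genes BCAT4 and UGT74B1, chosen after their values were seen, were brighter on array 1 than on array 2 in each genotype. So were 12 of the 36 genes, GSTU20 included, and 21.1% of all probe sets. BCAT4 read 2778 and 1831 on Columbia arrays 1 and 2 and 3373 and 1663 on jaw-D arrays 1 and 2. UGT74B1 read 868.9 and 700.6 in Columbia and 1032 and 790.1 in jaw-D. What the arrays with the same number share is not stated in the labels, and its part in these values was not tested.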
